A study of Homo sapiens with 2 samples.

Results

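The genes described here are 10 cytokine and cytokine receptor genes, namely the receptor chains IL15RA and IL12RB1, the ligands IL15, CSF1, OSM, LIF and TNFSF13B, the chemokines CCL8 and CXCL10, and the inhibitor IL18BP. They were looked up by gene name, at any distance, in a deposited list of 1986 binding summits of the transcription factor IRF1, and 8 summits carried the name of 1 of them. The list came from chromatin immunoprecipitation followed by sequencing in NB4, an established human acute promyelocytic leukemia line with the PML-RARA fusion. The 2 groups of the study were NB4 cells given all-trans retinoic acid (ATRA) for 4 hours and NB4 cells given the solvent DMSO for 4 hours, with 1 library each. The summit list is named for the ATRA library, and the values of the DMSO library were not analysed here. No gain or loss under ATRA, no spread between replicates and no test of treatment can therefore be given.

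IRF1 is a DNA-binding protein of the interferon response that recognises repeated GAAA blocks, the core of interferon-stimulated response elements. Cytokines are secreted signals, and a cell answers one only if it carries the matching receptor chains. Interleukin 15 is an unusual case, because the receptor chain IL15RA binds the cytokine inside the producing cell and presents it to neighbouring T and natural killer cells. IL15, IL18BP and CXCL10 are known as interferon-responsive genes in myeloid cells.

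Of the 10 genes, 6 had at least 1 summit in their name, and IL15, LIF, CXCL10 and IL18BP had no row. In the same list 6.38% of 19974 protein-coding genes had a summit at any distance by the same rule. Since the genes were picked with results of this list known, their count is a description and is not set against that share as a test. IL15RA and IL12RB1 had 2 summits each, and CSF1, OSM, TNFSF13B and CCL8 had 1 each. Of all 1644 genes named as nearest, 180 (10.9%) had 2 or more. The 6 genes kept a summit within 10 kb of the transcription start site (TSS), where the share of all protein-coding genes was 3.36%. Within 1 kb 4 genes remained, against 2.03% of protein-coding genes. OSM fell just outside that limit, at -1003 bp from the TSS the authors used. The same summit lay 992 bp from the RefSeq span of OSM, so the count of 4 holds for the authors' starts. The summit next to the limit on the inner side was the second of IL15RA, at 332 bp.

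The stretches below show the letters that resemble an IRF site near start sites with and without an IRF1 summit. They are from RefSeq (GRCh38.p14), each 150 bases on the strand of its gene, from -120 to 29 relative to the start, except that of CXCL10, which runs from -250 to -101 and leaves the start out. IL15RA, TNFSF13B and the cytokine gene FLT3LG had a summit close to the start, and CXCL10 and IL18BP had none nearby. The stretch of TNFSF13B ends 25 bases before its summit, and those of IL15RA and FLT3LG contain theirs. Capitals mark a paired block (GAAA, any 2 bases, GAAA, on either strand) in all but IL15RA, where they mark the shorter core AANNGAAA, since its windows hold no paired block.
IL15RA (chr10:5977582-5977731, minus strand): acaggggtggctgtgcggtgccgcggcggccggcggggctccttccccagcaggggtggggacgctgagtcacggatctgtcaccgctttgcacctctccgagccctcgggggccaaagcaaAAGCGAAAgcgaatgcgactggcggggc
TNFSF13B (chr13:108269509-108269658, plus strand): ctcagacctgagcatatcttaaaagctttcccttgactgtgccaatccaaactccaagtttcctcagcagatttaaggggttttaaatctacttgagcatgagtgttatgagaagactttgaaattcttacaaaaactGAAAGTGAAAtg
FLT3LG (chr19:49474095-49474244, plus strand): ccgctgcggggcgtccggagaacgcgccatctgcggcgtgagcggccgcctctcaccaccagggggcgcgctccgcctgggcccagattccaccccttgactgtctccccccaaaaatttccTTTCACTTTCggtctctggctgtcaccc
CXCL10 (chr4:76023598-76023747, minus strand): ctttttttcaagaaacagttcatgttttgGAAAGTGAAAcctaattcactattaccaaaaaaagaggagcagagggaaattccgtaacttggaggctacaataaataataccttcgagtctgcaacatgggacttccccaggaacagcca
IL18BP (chr11:71999497-71999646, plus strand): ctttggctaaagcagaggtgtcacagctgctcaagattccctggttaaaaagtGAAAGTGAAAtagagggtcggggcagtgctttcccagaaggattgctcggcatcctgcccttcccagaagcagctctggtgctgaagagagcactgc

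In IL15RA the core occupied positions 2 to 9 counted from the start site at 5977611, and its centre lay 8.5 bp from the summit. In TNFSF13B the paired block occupied positions 18 to 27 from the first start, and its centre lay 31.5 bp from the summit. In FLT3LG the block read on the opposite strand, at positions 2 to 11, with its centre 19.5 bp from the summit. In CXCL10 a block of the same 10 letters as in TNFSF13B stood at positions -221 to -212, and in IL18BP at positions -67 to -58 from the third of its 4 RefSeq start sites. The letters of the block were thus present in the promoters of genes with and without a summit in this list. Other cytokine and receptor genes had a summit near a start and no paired block between -250 and 50. They were CCRL2 (-22 bp), TNFRSF14 (169 bp) and CCL25 (-484 bp), and the summits of TNFRSF14 and CCL25 lay outside that range.

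Promoter windows running from 250 bases before to 50 after a RefSeq start were held for 6 of the 10 genes, in 13 windows. CSF1, OSM, IL15 and LIF had no window. The paired block was found in 4 of the 13 windows, against 3.57% of all 35116 windows of that length. By gene it was 3 of 6, against 4.38% of all genes with a window. IL15RA and IL18BP had 4 windows each. Per gene the 6 had more windows than all 27305 genes with a window, which gives more room for a match. Genes and motifs were chosen with earlier results of these data known, so no motif share here is a test. The windows of TNFSF13B overlap and hold the same block, which was counted in each, so windows of a gene are not independent. Among the 302 windows anywhere that held a summit, 117 (38.7%) had a paired block. The shorter core, which every paired block contains, was found in 7 of the 13 windows, against 22.8% of all windows. By gene it was 5 of 6, against 26.7% of the 27305 genes with a window. Here too, overlapping windows of IL15RA and of TNFSF13B hold the same cores. Only 3 of the 13 windows, from 2 genes (IL15RA and TNFSF13B), held a summit. The IL12RB1 core lay 12020.5 bp from the nearest summit. These counts therefore describe promoters of the genes and not sites under their summits. A palindrome of the type bound by STAT factors (TTCNNNGAA) was found in 3 of the 13 windows, 1 each of IL15RA, CCL8 and IL18BP, against 7.66% of all windows. A match describes letters in a window and does not show a bound site.

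**Figure D1:**
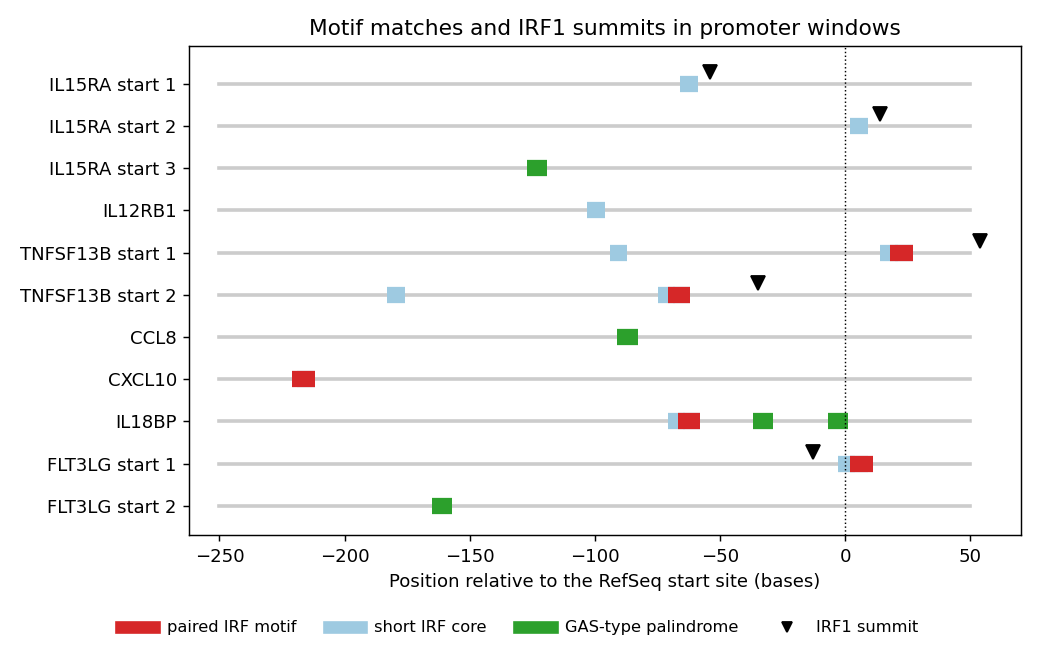
Motif matches and IRF1 summits by position relative to the RefSeq start site (bases), 1 row per window that held a match. Triangles are summits; those of IL15RA, TNFSF13B and FLT3LG lay close to a start, and the windows of CXCL10 and IL18BP held a paired block and no summit.

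Of the receptor chains, IL15RA had the strongest summit of the 10 genes and the fifteenth highest of the list. Its score was 232. The site was annotated as promoter, at chromosome 10 position 5977597 and 14 bp past the TSS, and it exceeded 99.2% of all summits. The score is the authors' own value per summit, with no unit given in the sources used here, and it serves only to order sites within this list. The summits next above it belonged to ZFAS1, a non-coding RNA gene (233), and APOL2, an apolipoprotein L gene (233), and those next below it to RGS3, a regulator of G protein signalling (231), and the peptide transporter gene TAP1 (231). A second IL15RA summit with a score of 17.7 lay 318 bp farther into the gene, at position 5977279, in an intron and inside a CpG island. The weaker of the pair stood at the lower quartile of the list (17.7). Such pairs were uncommon: 164 of all 1986 summits (8.26%) had another within 500 bp. Outside chromosome 21, where many summits of the list lie close together, it was 88 of 1816 (4.85%). RefSeq lists 4 start sites for IL15RA, and the strong summit lay 54 bp upstream of one of them and 14 bp downstream of the next.

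IL15RA lies beside IL2RA, which encodes the alpha chain of the interleukin 2 receptor, and the next summit on that side was in an intron of IL2RA. It stood 73.3 kb from the strong IL15RA summit, 11.5 kb downstream of the IL2RA TSS, with a score of 88.8. On the other side the next summit was 293 kb from the weaker IL15RA summit, at the promoter of TASOR2, with a score of 13.0.

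IL12RB1, the receptor chain shared by interleukins 12 and 23, had a summit with a score of 54.1 at chromosome 19 position 18087006, annotated as promoter and -3 bp from the TSS the authors used. This score exceeded 80.5% of all summits. The RefSeq table used here holds another start for IL12RB1, 11.9 kb upstream of that summit, so the site lies inside the present gene span (18058995 to 18098927). The second summit named for IL12RB1 scored 18.7 and lay at position 18119424, 32.4 kb from the first and 20.6 kb upstream of another start that the authors' file assigns to the gene, in intron 2 of 26 of the neighbouring gene MAST3 and within a MIR element of the SINE class. It was the only 1 of the 8 summits that the detailed annotation placed in a repeat. A stronger summit stood on the opposite side of IL12RB1, with a score of 119.9, intergenic, 13.8 kb beyond the end of the gene and assigned to ARRDC2, whose TSS is 37.0 kb away. The IL12RB1 region thus held 4 summits within 100 kb of the gene span, the most of the 10 genes, of which 2 bore its name.

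**Figure D2:**
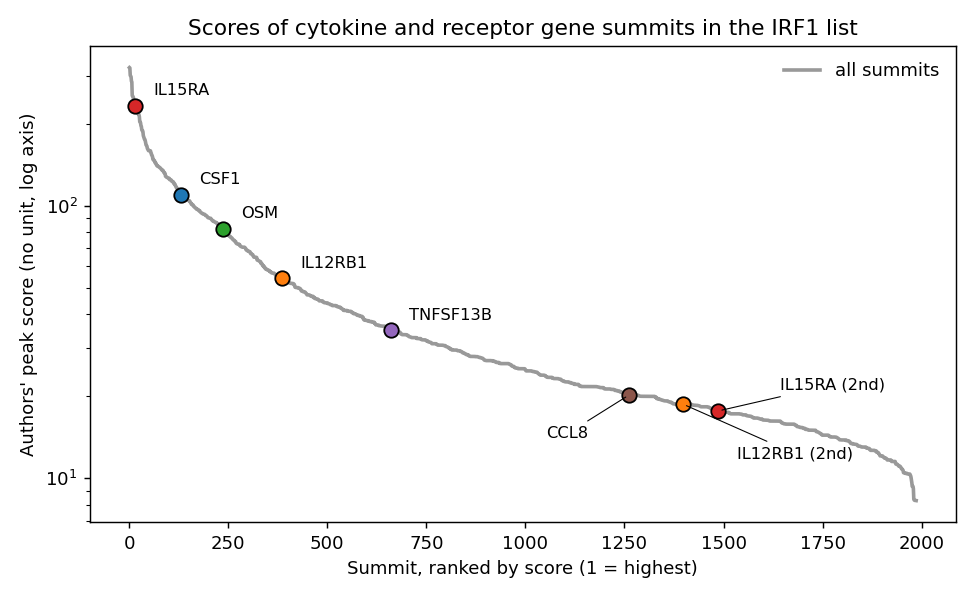
The authors' peak score (log axis, no unit) of all 1986 summits in rank order, with the 8 summits of the cytokine and receptor genes marked. IL15RA stands at rank 15 with 232, and its second summit at 17.7 lies near the lower quartile of 17.7.

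Among the ligands, IL15, the partner of IL15RA, had no row. Its gene (chromosome 4, 141636583 to 141733987) spans 97.4 kb and held no summit, and none lay within 100 kb of it. The nearest summit was 773 kb away, assigned to TBC1D9 with a score of 25.2, and the next on the other side was 1.78 Mb away at the promoter of SMARCA5 (37.6). Set side by side, IL15RA had 2 summits in a span of 29.8 kb, with scores of 232 and 17.7, and IL15 had 0 in its span of 97.4 kb. Both genes were measured in the same single library, so this contrast has no replicate check. If the list was called over the DMSO library, a gene bound alike in both would also have no summit.

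CSF1, the growth factor of macrophages, had the second strongest site. Its summit scored 109.6 on chromosome 1 (position 109910878), 267 bp past the TSS and in the 5′ UTR, in exon 1 of 9. It exceeded 93.4% of all summits. No other summit lay within 100 kb of it, and the next at lower coordinates was 362 kb away at the promoter of GNAI3 (30.8).

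OSM and LIF are neighbouring ligands of the interleukin 6 family on chromosome 22, and both signal through receptors that contain the IL6ST chain. OSM had a summit with a score of 82.1 at position 30267843, annotated as intergenic, which exceeded 87.9% of all summits. It lay -1003 bp from the TSS the authors used and 992 bp from the RefSeq span of OSM. LIF had none, and the OSM summit was also the nearest to LIF, 21.1 kb from its span (30240453 to 30246759). The next summits were 220 kb away in an LTR50 element near HORMAD2 (72.4) and 962 kb away in LIMK2 (44.8). The site is named for OSM by distance alone, and the list does not show which gene it serves.

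TNFSF13B encodes BAFF, a survival factor for B cells of the tumour necrosis factor superfamily. Its summit scored 34.9 on chromosome 13 (position 108269683), 54 bp past the TSS and annotated as promoter, above 66.6% of all summits. RefSeq gives a second start 89 bp farther on, from which the same summit is -35 bp away. This was the most isolated of the 8 summits on its nearer side, with the next one 1.52 Mb away at the IRS2 promoter (18.7). Exactly the same score was given to 3 summits of the list. The 1986 summits took 1046 distinct scores, so close ranks in the lower part of the list should not be read as an order.

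**Figure D3:**
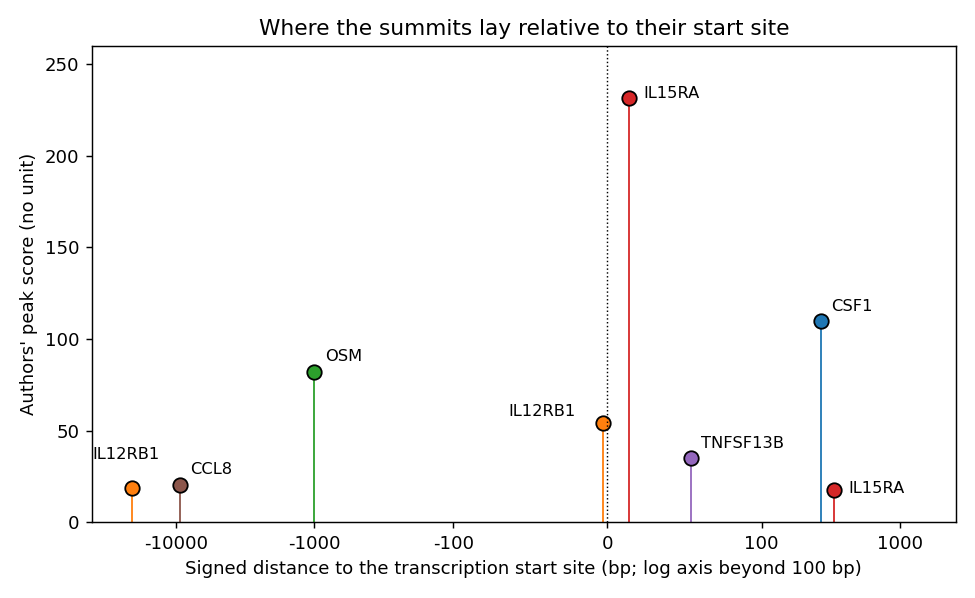
The authors' peak score (no unit) of the 8 summits against the signed distance to the TSS (bp, log axis beyond 100 bp). The summits of IL15RA (14 bp), IL12RB1 (-3 bp) and TNFSF13B (54 bp) lie at the start site, and those of CCL8 and the second of IL12RB1 lie far upstream with scores of 20.2 and 18.7.

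Of the chemokines, CCL8, an attractant of monocytes, had a weak upstream site. Its summit scored 20.2 at chromosome 17 position 34309697, above 35.5% of all summits, in intergenic sequence at -9350 bp from the TSS the authors used and -9738 bp from the RefSeq start. The site lies between CCL11, whose span ends 21.4 kb away, and CCL8, and the next summit of the list was 1.12 Mb from it. CXCL10, an attractant of activated T cells that is named for its induction by interferon gamma, had no row. The nearest summit to its span (chromosome 4, 76021118 to 76023497) was 190.3 kb away at the promoter of SCARB2, with a score of 43.6. IL18BP, the secreted protein that neutralises interleukin 18, had no row either. The nearest summit to its span (chromosome 11, 71998909 to 72008200) lay 2.01 Mb away, in the list under UCP3 with a score of 18.3. Of the 4 genes without a row, LIF alone had a summit within 100 kb of its span.

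**Figure D4:**
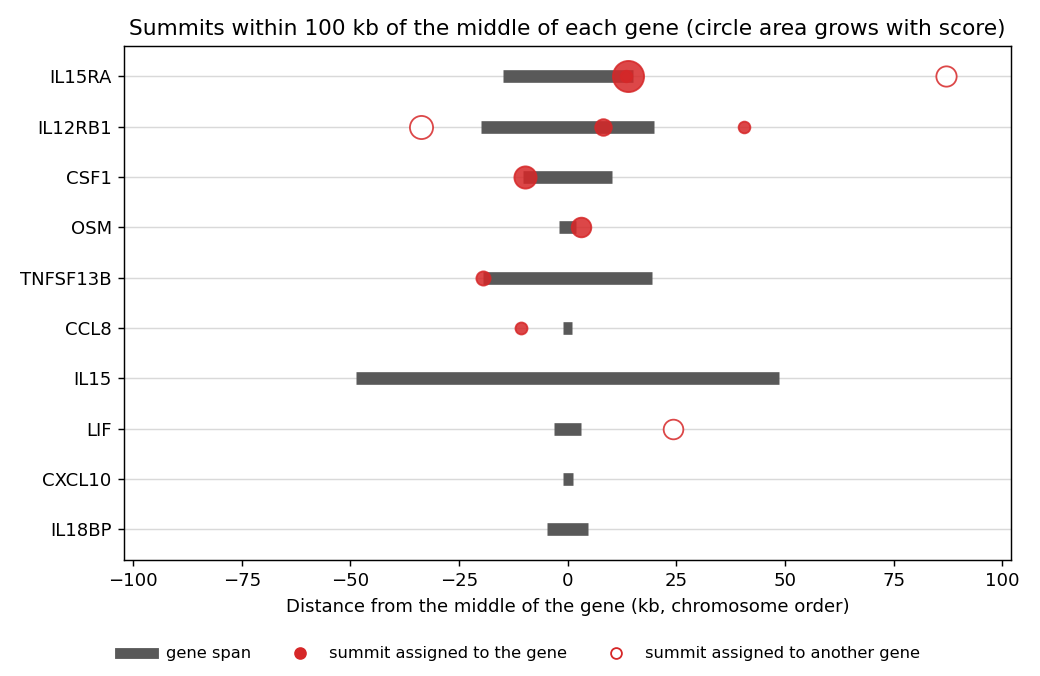
Summits within 100 kb of the middle of each gene, in kb and in chromosome order. Bars are gene spans, filled circles are summits assigned to the gene, open circles are summits assigned to another gene, and circle area grows with score; IL15, CXCL10 and IL18BP have none.

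As a group, 3 of the 8 summits lay within 100 bp of a TSS and 5 within 1 kb, compared with 10.9% and 27.1% of all 1986 summits. By the authors' classes, 3 were promoter summits, 2 intergenic, 2 intronic and 1 in a 5′ UTR. Their scores ran between 17.7 and 232 with a median of 44.5, and the median of the whole list was 25.2. For the 6 genes, the best score within 10 kb had a median of 68.1, compared with 28.8 over all 672 protein-coding genes with a summit within 10 kb. The genes were picked with results of this list known, and their summits are few and from 1 library. These figures therefore describe the sites, were not tested and are no test of the genes against the list. The 5 highest of the 8 exceeded the list median, and the CCL8 site and the second sites of IL15RA and IL12RB1 were below it.

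To see the genes among their relatives, 202 cytokine, chemokine and receptor genes in 8 families were counted, with these 10 included. A summit within 10 kb of the TSS was found for 13 of 202 (6.44%, 95% Wilson interval 3.80 to 10.7). Without the 10 genes the count was 7 of 192 (3.65%, 1.78 to 7.33), beside 3.36% of all protein-coding genes. The 10 genes were picked with results of this list known, so leaving them out removes 6 genes known to have such a summit. At any distance the 192 genes had a share of 8.85% (5.60 to 13.7), beside 6.38%. Neither share is a test of these relatives against all protein-coding genes. Intervals cover counting error only. With the 10 genes included, ligands held 7 of 108 (6.48%) and receptors 6 of 89 (6.74%), and no test was made between these roles.

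The 7 relatives with a summit were FLT3LG, CCR7, TNFRSF14, CCL25, CCRL2, CD40 and IL2. FLT3LG, a growth factor for blood progenitors and dendritic cells, scored 169.6 at a distance of -7 bp, second to IL15RA in all families. CCR7, the lymph node homing receptor, had 113 in its 3′ UTR, 5.94 kb downstream of the TSS. TNFRSF14, the receptor HVEM, had 83.4 at 169 bp, in an exon of a non-coding transcript. CCL25, a chemokine of gut and thymus, had 53.8 at -484 bp. The scores of the atypical chemokine receptor CCRL2 (17.7, -22 bp), the costimulatory receptor CD40 (17.1, 1155 bp) and the T cell growth factor IL2 (16.9, -2217 bp) were below the list median.

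By family, the interleukin 2 and 15 group had such a summit for 2 of 19 genes, IL15RA and IL2, and the interleukin 12 group 1 of 9, IL12RB1. The colony-stimulating factor group had 2 of 18, and both were ligands, CSF1 and FLT3LG. Their receptors, among them CSF1R, FLT3 and CSF3R, had 0 of 8. That count allows a share of up to 37.5% by a limit of 3 counts, and of up to 32.4% by the Wilson interval. The tumour necrosis factor superfamily had 3 of 38, the chemokine group 4 of 65 and the interleukin 6 group 1 of 15, OSM. The interleukin 1 and 18 group and the interferon and interleukin 10 group had 0 of 19 each, which allows up to 15.8% by 3 counts and 16.8% by the Wilson interval. Among 42 chemokine ligands only CCL8 and CCL25 had a summit at any distance, so CXCL9 and CXCL11, the gene neighbours of CXCL10, had none. All these intervals are wide and overlap. The family counts include the 10 genes, which were picked with results of this list known. In the interleukin 12 and interleukin 6 groups the only such summit was that of a picked gene. The family shares are therefore descriptions and are not set against the share of all protein-coding genes as a test.

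**Figure D5:**
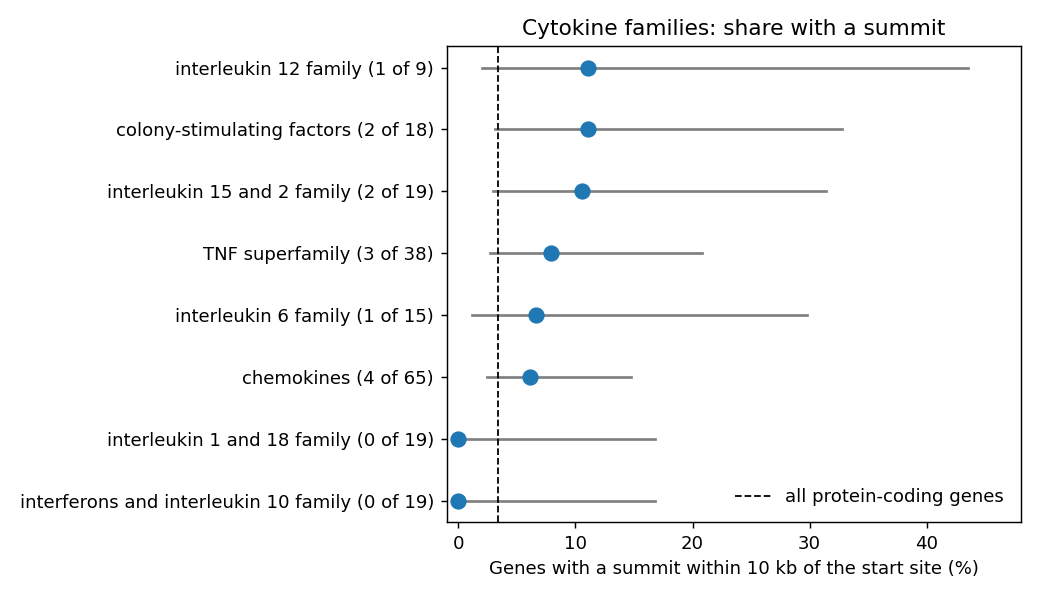
Share of genes (%) with a summit within 10 kb of the TSS in 8 families. The 10 genes are included and were picked with results of this list known, so the shares are no test against the dashed line. Points are shares, bars are 95% Wilson intervals, and the dashed line is the 3.36% of all protein-coding genes; the 2 families at 0 have intervals that reach 16.8%.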

How the data were processed

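Per the labels' protocols, NB4 chromatin was fixed with formaldehyde, sonicated and immunoprecipitated, and the DNA was amplified by PCR. The submitters' processing notes name Bowtie2 2.2.9, MACS 1.4.2 and hg38. HOMER's annotatePeaks.pl added the annotation to a summit file, per the file headers. What the calling used as background, which threshold it had and what was done with duplicate reads is not given in the sources used here. The deposited peak score is the authors' value per summit, and the deposited distance is in bp to the TSS. Read depth behind a summit is unknown.

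Genes were matched by Entrez identifier to RefSeq (GRCh38.p14), and a summit belonged to the gene that the authors gave as nearest. Background shares used 19974 protein-coding genes (chromosome Y left out). Positions are 1-based, and positions in promoters are counted from 0 at the start site. Motifs were searched on both strands, and the search was tested on simulated data. The genes, family lists and motifs were chosen with earlier results of these data known. All 10 genes were named, as were up to 4 genes of each family by score, the summits next to theirs and the neighbours of the strongest in rank, except 1 that is not reported here. No test was possible with 1 library in a group. Alternatives were the higher-scoring summits, distances of 1 kb and 10 kb, gene spans with 10 kb added, merging of summits closer than 200 bp, and a shorter motif. Computations used Python 3.11.15, pandas 2.3.3 and statsmodels 0.14.6.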

Additional observations from a re-analysis of the deposited data

How the results depend on the processing

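No paired analysis was possible because the groups have a single library each, and for the same reason no library could be omitted. The number of the 10 genes with a summit was 6 at any distance and within 10 kb, 6 with gene spans extended by 10 kb, 5 with the 998 summits at or above the median score, and 4 within 1 kb. Of the 8 summits, 5 remained among those 998, by construction of the score limit, and 8 after summits closer than 200 bp were merged. The merging could not change this count, since no summit of the list lay closer than 318 bp to any of the 8. The 13 genes of the wider families became 8 of 202 within 1 kb (3.96%), 23 at any distance (11.4%) and 25 with extended spans (12.4%). Among the 998 summits it was 9 within 10 kb (4.46%). By these rules the shares of all protein-coding genes were 2.03%, 6.38%, 7.45% and 1.90%, in that order. The wider family counts include the 10 genes, which were picked with results of this list known, so the shares are no test. Without the 10 genes the shares of the other 192 were 2.08%, 8.85%, 9.90% and 2.08%, in the same order. For the 998 summits at any distance the share of all protein-coding genes was 3.55%. The shorter core was found in promoters of 5 of 6 genes and the paired block, which contains it, in 3. Reads per summit are not known, and a gene without a summit may still be bound.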

Other observations

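A summit beyond 10 kb was assigned to 10 further cytokine and receptor genes. IL2RA (88.8), IL26 (83.4) and IL31RA (77.3) had the highest scores. The IL26 summit was intergenic, at -11.0 kb from the TSS of this interleukin 10 family ligand. The IL31RA summit lay 44.1 kb downstream of the TSS, in an intron of this interleukin 31 receptor gene. FAS, the death receptor, had a summit at -15.4 kb (37.6), and its ligand gene FASLG had one 87.5 kb away in intergenic sequence (36.7). IL2RB, a chain that interleukins 2 and 15 share, had a summit at -12.7 kb (20.6). IL1RL1, IL10RA and TNFSF18 had scores between 17.5 and 18.3, at -55.1, 26.1 and -72.3 kb in that order. IFNB1, the interferon beta gene, had the lowest score of the 25 summits of all families, 13.7 at -18.5 kb. Counted at any distance, 2 of the 3 chains of the interleukin 15 receptor complex, IL15RA and IL2RB, had a summit assigned, and IL2RG had none. The IL2RB summit was intergenic, farther than 10 kb and below the list median of 25.2. At any distance 6.38% of all protein-coding genes had a summit, and assignment goes by distance alone.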
